A study of Mus musculus with 12 samples.

Results

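The regions described here are 6676 distal stretches of open chromatin that were found in both NeuN+ and Olig2+ nuclei of the mouse forebrain and that met no peak of forebrain microglia. ATAC-seq reads out such stretches with a transposase that cuts and tags accessible DNA. Each is a pair of peaks, 1 from the NeuN+ table and 1 from the Olig2+ table, that matched only each other and covered at least 50% of both. Both peaks were annotated as intronic or intergenic, lay more than 1000 bp from the nearest annotated transcription start site (TSS), and overlapped no microglia peak by even 1 bp. They were drawn from 281974 peaks in 3 tables, which held 29576 one-to-one pairs of NeuN+ and Olig2+ peaks. Of these pairs 12960 were distal, and 6284 of the distal pairs met a microglia peak and so were left out. Among the listed peaks the rule used position and annotation alone, and no tag value or change entered it. The peaks themselves were called from reads of these libraries beforehand, so a region may have entered through 1 genotype alone.

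The libraries came from C57BL/6 mice aged 4 months. The groups were wild type (WT) and SgshKO, named as a knockout of Sgsh, the gene of the lysosomal enzyme that removes sulfate from the amino sugar of heparan sulfate and whose loss causes Sanfilippo syndrome type A. Every sort had 2 WT and 2 SgshKO libraries, which made 12 libraries in 6 groups, and the 8 libraries of nuclei carry the values below. NeuN+ nuclei were lightly fixed and gated as negative for OLIG2 and PU.1, and Olig2+ nuclei as negative for NeuN and PU.1, so neither sort should hold nuclei of the other or of microglia. Microglia were sorted as live cells and were not fixed. With 2 libraries a group, no genotype difference below rests on more than 4 libraries of a sort. The labels give neither the kind of Sgsh allele, nor the sex of the mice, nor how many animals a library holds. They do not say that replicates were separate animals, so p-values measure the spread between these libraries, which may be technical.

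Open chromatin far from a gene's start commonly holds enhancers, which bind transcription factors and act on promoters at a distance. Most enhancers are used in few cell types. Neurons and oligodendrocytes descend from neural progenitors, whereas microglia come from the yolk sac. NeuN is the splicing factor Rbfox3 of mature neurons, and Olig2 is a transcription factor of oligodendrocytes and their precursors. Peaks carry the name of the gene with the nearest TSS, which is a label of place and need not be the gene a region acts on.

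Library totals ran from 14326703 to 17706971 tags in NeuN+ and from 15044194 to 19555924 in Olig2+ nuclei, with fewer in both SgshKO groups. The share of tags inside peaks was 25.9% to 26.7% in WT and 21.2% to 21.5% in SgshKO NeuN+ libraries, and 30.9% to 31.8% over the 4 Olig2+ libraries. Peaks within 1000 bp of the TSS of marker genes followed the labels of the sorts: all 20 neuronal markers had a peak in NeuN+ nuclei and all 20 oligodendrocyte markers had one in Olig2+ nuclei. Only 1 of 16 microglia markers had such a peak in each table of nuclei, against 15 of 16 in microglia. The summed tags of neuronal markers in NeuN+ nuclei were 1639 to 1798 in WT and 989.8 to 1008 in SgshKO. Oligodendrocyte markers, of which 10 of 20 had a peak in NeuN+ nuclei, summed there to 313 to 357 in WT and 190 to 223 in SgshKO. The other 4 marker lists, of oligodendrocyte precursors, astrocytes, microglia and endothelium, also summed lower in SgshKO NeuN+ libraries, so the genotypes did not overlap in any of the 6 lists. In bulk nuclei, other shares of the kinds of nuclei, less access per nucleus and the lower share of tags inside peaks of these libraries cannot be told apart.

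No genome sequence was at hand for the regions themselves, but 87 of them (1.30%) reach into the 250 bases upstream of a RefSeq gene start, 94 such windows of 87 genes, and there the sequence can be shown. Of those genes 70 carry predicted or clone-based symbols (Gm or Rik) and 17 have other symbols, among them Dlg4, which encodes the postsynaptic scaffold PSD-95, and Nfix, a nuclear factor I gene. These regions are thus distal to the start sites of the deposited annotation and not to every start in RefSeq. The stretches below, on GRCm38.p6 (mm10) and 5′ to 3′ on the strand of the RefSeq gene, are the overlap of a region with such a window, and 1 is shown for each direction of change in each sort, the called region with the smallest p whose overlap held a longer stretch. Capitals mark the E-box CANNTG or the SOX motif ACAAAG, searched on both strands along with AP-1 (TGANTCA), the RFX motif GTTGCC, the CTCF core AGGGGGC and the palindromic NFI site.
Gm34074 (chr4:140355156-140355343, plus strand, higher in SgshKO NeuN+ nuclei): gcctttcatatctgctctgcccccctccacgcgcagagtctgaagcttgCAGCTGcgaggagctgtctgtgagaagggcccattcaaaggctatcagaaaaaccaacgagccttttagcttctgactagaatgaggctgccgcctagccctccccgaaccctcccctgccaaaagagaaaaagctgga
Gm35486 (chr3:84814449-84814673, minus strand, lower in SgshKO NeuN+ nuclei): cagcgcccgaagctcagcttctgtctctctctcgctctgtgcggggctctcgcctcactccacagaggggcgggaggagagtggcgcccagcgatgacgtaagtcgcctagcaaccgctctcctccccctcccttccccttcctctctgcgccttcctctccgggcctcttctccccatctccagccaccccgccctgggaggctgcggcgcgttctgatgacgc
Gm51464 (chr7:48137192-48137394, plus strand, higher in SgshKO Olig2+ nuclei): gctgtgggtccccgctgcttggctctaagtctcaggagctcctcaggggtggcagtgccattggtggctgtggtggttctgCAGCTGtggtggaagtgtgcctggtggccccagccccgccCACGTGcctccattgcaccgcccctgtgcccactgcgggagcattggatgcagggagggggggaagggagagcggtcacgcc
1700019J19Rik (chr9:14089898-14090076, plus strand, lower in SgshKO Olig2+ nuclei): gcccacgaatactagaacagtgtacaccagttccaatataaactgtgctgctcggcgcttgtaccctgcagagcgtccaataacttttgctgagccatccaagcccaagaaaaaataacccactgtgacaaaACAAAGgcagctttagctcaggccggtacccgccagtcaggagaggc

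The values at these 4 regions show the range of behaviour. At Gm34074, whose deposited nearest gene is Gm13016, WT NeuN+ nuclei had 3.40 and 3.39 normalized tags (reads scaled to 10000000 per library) and SgshKO ones 11.9 and 12.7, which is a log2 change of 1.60 ± 0.34 (SE; adjusted p = 0.00225, limma over all NeuN+ peaks). At Gm35486, near Fbxw7, a subunit of a ubiquitin ligase, WT NeuN+ nuclei had 191 and 195 and SgshKO ones 118 and 108 (log2 change -0.77 ± 0.10, adjusted p = 4.1e-05). At Gm51464 Olig2+ nuclei had 68.5 and 68.5 in WT and 114 and 126 in SgshKO (log2 change 0.80 ± 0.13, adjusted p = 6.02e-05). At 1700019J19Rik, whose deposited nearest gene is the stress-induced Sesn3, they had 62.8 and 49.1 in WT and 17.2 and 21.9 in SgshKO (log2 change -1.47 ± 0.21, adjusted p = 8.1e-06). The NeuN+ fall near Fbxw7 was not called after quantile normalization (adjusted p = 0.144). None of the 4 was called in the other sort, where the adjusted p was 0.151, 0.0692, 0.297 and 0.825 in the order given. In the whole windows of 250 bases, E-boxes stood in 59.6% under these regions against 66.2% of all 32851 windows, SOX motifs in 13.8% against 16.5% and AP-1 motifs in 9.57% against 6.75%. RFX motifs stood in 11.7% against 10.4%, CTCF cores in 10.6% against 9.43%, and the NFI site in 0 of 94 against 0.0365%. With 94 windows these shares are coarse, and a match is a description of letters.

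Of the 6676 regions, 4316 (64.6%) were intronic and 2360 (35.4%) intergenic, and 34.8% of the intronic ones lay in a first intron. The median distance to the nearest TSS was 20.1 kb (quartiles 5.67 and 52.3 kb), with 1740 beyond 50 kb and the farthest at 924 kb. The distal pairs that did meet a microglia peak were intronic in 48.5% and lay at a median of 12.9 kb from a TSS. Distal NeuN+ peaks with no partner in Olig2+ nuclei or microglia lay at a median of 33.7 kb. The peaks were narrow, with a median width of 244 bp in the NeuN+ and 242 bp in the Olig2+ table, and the median reciprocal overlap was 81.0%. Both tables named the same nearest gene for 6666 regions (99.9%). The nearest microglia peak lay a median of 5.96 kb away, within 1000 bp for 1313 regions (19.7%) and beyond 10 kb for 2749 (41.2%). The microglia table lists only peaks, so it gives no tags at these regions and their level in microglia was not measured. At the distance limit, the 403 regions at most 1500 bp from a TSS had median log2 changes of -0.24 in NeuN+ and -0.00 in Olig2+ nuclei, and the 283 pairs just outside, beyond 500 and up to 1000 bp, had -0.46 and -0.01. At the overlap limit, 775 regions with 50% to 60% overlap had -0.20 and -0.08, and 612 pairs with 40% to 50% had -0.19 and -0.03.

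The regions were spread over 3986 nearest genes, 2706 of which had 1 region. Among the genes with many regions were Adgrb1 (the adhesion receptor BAI1), Gse1 and Nfasc (neurofascin, an adhesion molecule of the node of Ranvier and the axon initial segment), with 16 each. Ank3, which encodes ankyrin-G of the same axonal domains, and Nfix had 15 each. Mbp, the gene of myelin basic protein, had 14, all of them intronic. The 6599 autosomal regions were joined by 65 on X, 8 on Y and 4 on unplaced sequence.

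Which level these shared regions had in each sort was compared first in WT nuclei. They were not equally open: 2128 were higher in Olig2+ and 1300 higher in NeuN+ nuclei, and 3248 were not called apart (limma over all 29576 pairs, adjusted p under 0.05, which is the threshold for every call below). That is 31.9% and 19.5% of the regions, against a background of 33.7% and 22.5%, or 56.2% in all, of the pairs, so the regions stood near the background in both directions. The split leaned on the scaling, with 1750 higher in NeuN+ and 1680 higher in Olig2+ after scaling to the sum of tags in peaks. Each sort's tags were counted in its own peak of the pair, and the paired peaks can differ in width, which was not corrected. Among the 3502 regions with at least 80% overlap 49.5% were called. Within 2-fold stood 4240 regions (63.5%), but 238 were over 8-fold higher in Olig2+ and 33 over 8-fold higher in NeuN+ nuclei. Across regions the WT levels of the sorts had a Pearson r of 0.15 and a Spearman rho of 0.15 on log2 values (n = 6676 regions, which share libraries and are not replicates).

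**Figure D1:**
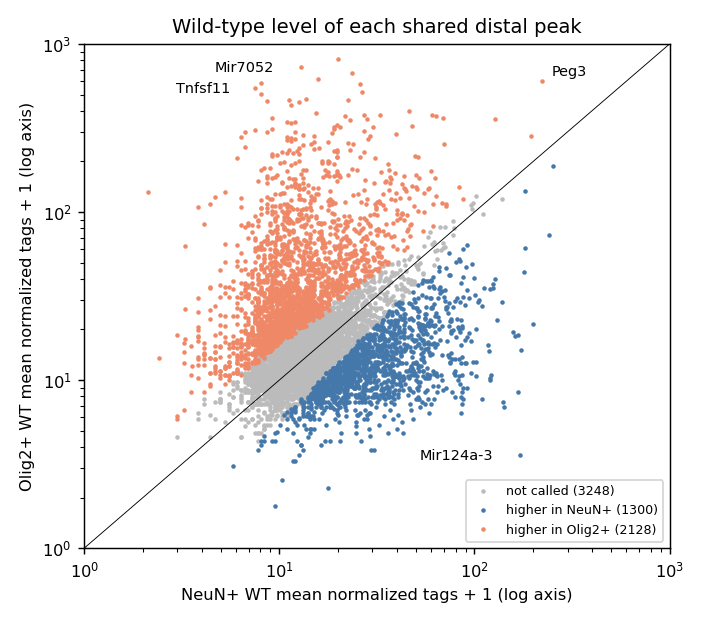
Mean normalized tags + 1 of the WT libraries at each of the 6676 regions, NeuN+ on the horizontal and Olig2+ on the vertical log axis (n = 2 libraries each), with the line of equal level. Orange points were called higher in Olig2+ (2128), blue points higher in NeuN+ (1300), and the 4 labelled regions lie far out along either arm.

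The far ends of this range named genes of the matching cells in part. Mir124a-3, which encodes the neuron-enriched microRNA miR-124, had a region 1016 bp from its TSS (chr2:180892898-180893151) with 168 and 175 tags in WT NeuN+ and 3.63 and 1.53 in WT Olig2+ nuclei, a log2 difference of 5.65 ± 0.25 (SE; adjusted p = 2.7e-20, limma). Next came an intron of Lingo1, a neuronal receptor component that restrains myelination, with 143 and 139 against 5.19 and 6.65 (4.37 ± 0.21). An intron of Schip1, an ankyrin-G partner at axonal domains, had 165 and 168 against 6.74 and 8.18 (4.32 ± 0.20). At the other end stood an intergenic region 75.5 kb from Tnfsf11 (the cytokine RANKL, chr14:78383433-78383651), with 4.53 and 8.47 in NeuN+ against 557 and 538 in Olig2+ nuclei (-6.25 ± 0.18). Regions in introns of Fam102a (nearest TSS Dpm2, -6.20 ± 0.16) and Dnajc18 (nearest TSS Spata24, -5.96 ± 0.15) followed. WT NeuN+ libraries held 5.65 to 8.50 tags at these last 2 regions, and the smallest, 5.65, rests on 10 reads.

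The 3 regions with the most tags over the 8 libraries were all strongest in Olig2+ nuclei. An intron of Ttyh1, a membrane protein of glia, with the nearest TSS of 9430041J12Rik, had 828 and 789.5 tags in WT and 626 and 612 in SgshKO Olig2+ nuclei. It fell there by 0.38 ± 0.05 on the log2 scale (adjusted p = 3.8e-06, limma), while NeuN+ libraries had 15.4 to 20.3. The intergenic region nearest to Mir7052 had 736 and 726 in WT and 745 and 751 in SgshKO Olig2+ nuclei, with log2 change 0.03 ± 0.05 (adjusted p = 0.669), and 6.98 to 11.9 in NeuN+ nuclei. The first intron of the imprinted gene Peg3 was open in both sorts, with 224 and 220.2 tags in WT and 146 and 152 in SgshKO NeuN+ nuclei and 613 and 588 against 459 and 468 in Olig2+ nuclei. It fell by 0.57 ± 0.09 and 0.37 ± 0.06 on the log2 scale (adjusted p = 2.26e-04 and 4.05e-05). After quantile normalization the NeuN+ change at Peg3 was -0.01 and not called (adjusted p = 0.969).

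As a whole the regions held fewer tags in SgshKO nuclei of both sorts, and in Olig2+ nuclei they also held a smaller share of the tags in peaks. They summed to 121751 and 120087 normalized tags in WT and 101082 and 98954 in SgshKO NeuN+ libraries, 17.3% less. WT Olig2+ libraries summed to 183029 and 182908 and SgshKO ones to 158476 and 162739, 12.2% less. Genotypes did not overlap in either sort, and 2 against 2 libraries cannot give an exact permutation p below 0.3333. As a share of the library's tags in peaks, the regions held 4.56% and 4.63% in WT NeuN+ libraries and 4.69% and 4.66% in SgshKO ones, so the share in peaks did not show the fall of the sums. The Olig2+ share went from 5.75% and 5.75% to 5.13% and 5.11%. Over 4 libraries each, Olig2+ sums were 1.56-fold the NeuN+ sums (exact permutation test, two-sided, p = 0.0286, the smallest that 4 against 4 allow).

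**Figure D2:**
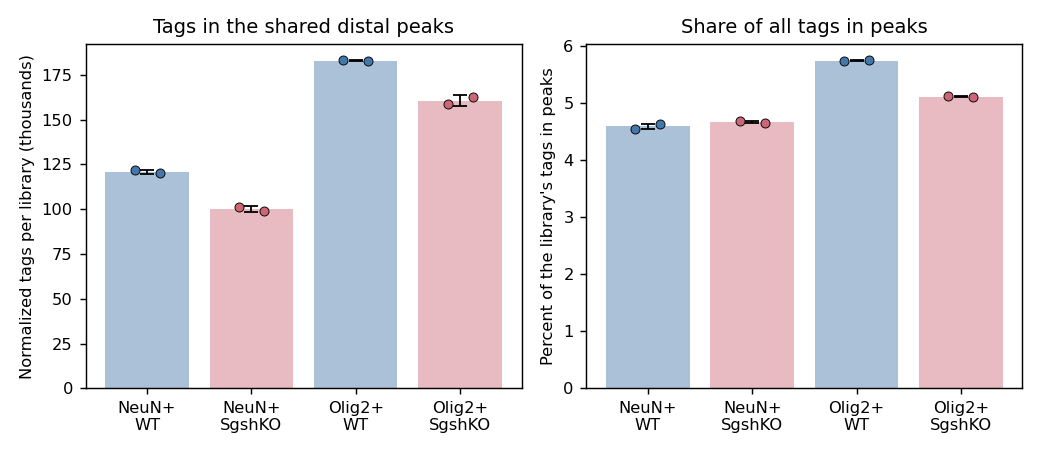
Left, normalized tags summed over the 6676 regions in each library (points), with the group mean (bars) and SD (n = 2), and right, the same sum as a percent of the library's tags in peaks. SgshKO sums lie below WT in both sorts, while the share falls in Olig2+ nuclei and is 4.56% to 4.69% throughout NeuN+ nuclei.

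How single regions changed with genotype in NeuN+ nuclei was tested within the NeuN+ table. At the deposited scaling 251 regions were higher and 1149 lower in SgshKO, 3.76% and 17.2% of them, against 10.2% higher and 19.6% lower, 29.8% in all, of the 107627 NeuN+ peaks. The median log2 change was -0.30, beside -0.23 over all peaks. The direction rests on the scaling: 587 were higher and 413 lower after in-peak scaling, 458 and 530 after median-of-ratios scaling, 246 and 343 after quantile normalization, and 492 and 553 with edgeR on the recovered reads. Those scalings also move the median of all NeuN+ peaks, to 0.05, -0.03 and -0.08 for the first 3, and the regions' median stayed lower than it at -0.02, -0.09 and -0.18. Distal NeuN+ peaks with no partner in the other sorts went the other way at the deposited scaling, with 9595 higher and 4137 lower of 53765. The distal pairs that meet a microglia peak gave 76 higher and 2013 lower of 6284. No region was called without either SgshKO library, where 1646 and 1577 had an unadjusted p under 0.05 and edgeR called 626 and 548. The summed tags of all 6 marker lists were also lower in SgshKO NeuN+ libraries, and their part in these counts was not tested.

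Changes were ranked among called regions whose mean over a sort's 4 libraries was at or above the median of all the regions in that sort, 12.1 tags in NeuN+ and 14.2 in Olig2+ nuclei, with 1 region per nearest gene. Larger changes at regions with fewer tags are not ranked here, such as -2.72 near Ccl28, a chemokine gene, in NeuN+ nuclei, chosen after its values were seen. Among ranked regions that fell in NeuN+ nuclei the largest change was intergenic, 31.2 kb from Plekha1, an adaptor that binds membrane phosphoinositides (chr7:130834391-130834593). Its NeuN+ libraries had 109 and 111 tags in WT and 7.68 and 13.97 in SgshKO (log2 change -3.29 ± 0.23 with its SE, adjusted p = 7.8e-08, limma). Olig2+ nuclei had 30.1 and 38.4 in WT and 23.4 and 14.0 in SgshKO there (-0.87 ± 0.24, adjusted p = 0.012), and the difference between the sorts was called (-2.41 ± 0.35, adjusted p = 1.6e-06). An intron of the synapsin gene Syn3 (nearest TSS 4930486F22Rik) went from 21.5 and 20.9 to 5.58 and 5.08 in NeuN+ nuclei and from 73.7 and 61.4 to 44.3 and 38.5 in Olig2+ nuclei. The Olig2+ calls were lost at Plekha1 without WT replicate 2 or SgshKO replicate 2 (adjusted p = 0.181 and 0.138) and at 4930486F22Rik without WT replicate 1 (0.135). Intergenic regions near Prg4 (lubricin) and G530011O06Rik on Y, and an intron of the amino acid transporter subunit Slc3a1, fell in NeuN+ nuclei, with log2 changes of -1.65, -1.69 and -1.61. At Prg4 and Slc3a1 the Olig2+ libraries gave -0.36 and 0.10, neither called (adjusted p = 0.4 and 0.859).

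The largest NeuN+ increase belongs to a region without a single read in any WT library of either sort. This intergenic peak of 201 bp, 25.7 kb from the collagen gene Col19a1 (chr1:24613018-24613218, the same ends in both tables), had 489 and 514 tags in the SgshKO NeuN+ libraries and 731 and 693 in the SgshKO Olig2+ libraries. With each WT library set to a floor of 3 reads, the NeuN+ level was at least 288-fold higher and the Olig2+ level at least 445-fold higher in SgshKO. No other peak of either table lay within 10 kb. No other region named here had 0 tags in each WT library, and whether the tags come from this place in the genome was not tested. The other ranked increases were smaller: an intron of the ciliary gene Cfap46 went from 7.36 and 9.60 to 30.7 and 29.2, an intergenic region near Gm38414 from 9.63 and 6.21 to 31.4 and 25.4, and one near Nemf, a factor of ribosome quality control, from 5.66 and 5.08 to 19.5 and 19.7. A region 352 kb from Gramd3 rose from 7.36 and 9.60 to 23.7 and 24.1. Cfap46 also rose in Olig2+ nuclei, from 0.52 and 1.02 to 23.4 and 25.3 (log2 change 3.85 ± 0.37, adjusted p = 1.0e-08, limma). There the WT values are 1 and 2 reads and the mean lies below the limit for ranking. With so few WT reads, this peak and the one near Col19a1 may have been called through SgshKO libraries alone. Their rises are then partly set by the calling of peaks.

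In Olig2+ nuclei 272 regions were higher and 1084 lower in SgshKO (4.07% and 16.2%), against 8.17% higher and 11.7% lower, 19.8% in all, of the 82577 Olig2+ peaks. Here the share of falls stood above the background and the share of rises below it. The median log2 change was -0.22, beside -0.07 over all Olig2+ peaks. The distal pairs that meet a microglia peak leaned alike, with 4.76% higher, 16.6% lower and a median of -0.25. The lean is thus not particular to these regions. Falls outnumbered rises under every scaling run, with 1049 against 304 after in-peak scaling, 899 against 370 after median-of-ratios scaling, 710 against 320 after quantile normalization and 957 against 411 with edgeR. The regions higher in WT Olig2+ than in WT NeuN+ nuclei gave 98 rises and 533 falls among 2128, and those higher in WT NeuN+ gave 83 and 121 among 1300, a grouping that shares the WT libraries with the changes. The second split turned to 105 rises and 100 falls after median-of-ratios scaling and to 102 and 55 after quantile normalization. Oligodendrocyte marker TSS peaks summed to 5651 to 5707 tags in WT and 5052 to 5090 in SgshKO Olig2+ libraries, and those of oligodendrocyte precursors to 457 to 458 and 548 to 594. The other 4 marker lists also summed higher in SgshKO Olig2+ libraries. The part of such a shift in these counts was not tested.

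Of the 5 regions with the largest Olig2+ falls among those at or above the median level given above, 3 were nearest to Pdk4, Zbtb16 and Klf15, genes known to respond to glucocorticoids. The region 52.9 kb from Pdk4, a kinase that turns off pyruvate dehydrogenase (chr6:5443290-5443497), had 113 and 106 tags in WT and 15.99 and 9.31 in SgshKO Olig2+ nuclei (log2 change -3.06 ± 0.21 with its SE, adjusted p = 8.1e-12, limma). In NeuN+ nuclei it had 13.6 and 20.3 in WT and 5.58 and 5.71 in SgshKO (-1.41 ± 0.31, adjusted p = 0.0031). An intronic region of Zbtb16, the gene of the repressor PLZF (chr9:48737595-48737843, intron 3), went from 213 and 212 to 56.6 and 35.2 in Olig2+ nuclei (-2.22 ± 0.15) and from 49.3 and 52.0 to 36.3 and 33.0 in NeuN+ nuclei (-0.53 ± 0.17). An intron of Klf15, a zinc-finger factor of metabolism, went from 26.5 and 26.1 to 3.69 and 6.65 in Olig2+ nuclei (-2.19 ± 0.31). At Klf15 the NeuN+ libraries had 14.2 and 12.99 in WT and 9.77 and 5.71 in SgshKO, which was not called (adjusted p = 0.0719). Without WT replicate 2 the NeuN+ fall at Pdk4 was not called (adjusted p = 0.08), and that at Zbtb16 was not called after in-peak, median-of-ratios and quantile scaling (0.325, 0.178 and 0.309), with edgeR (0.177) and without either WT library (0.133 and 0.172).

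The other 2 lay in introns: an intron of the histone methyltransferase gene Kmt2c (nearest TSS Galnt11) went from 24.4 and 25.1 to 6.15 and 3.32 tags in Olig2+ nuclei, with 24.9 and 16.4 in WT and 25.1 and 24.1 in SgshKO NeuN+ nuclei. The second, in the first intron of Ldlrad4, a brake on TGF-beta signalling, fell from 66.9 and 55.2 to 10.5 and 15.95 in Olig2+ nuclei. Among increases ranked by the same limit, and apart from Col19a1, the largest in Olig2+ nuclei was in the first intron of Cadps, a priming factor of dense-core vesicles, with 35.3 and 47.0 in WT and 123 and 141 in SgshKO (log2 change 1.67 ± 0.15, adjusted p = 3.6e-09, limma). The first intron of Crocc2 went from 41.0 and 35.3 to 113 and 106, and a region 142 kb from Rnf144b, a ubiquitin ligase, from 58.6 and 57.8 to 179.5 and 149. An intron of the pseudogene Pisd-ps3 on unplaced sequence went from 15.04 and 12.8 to 35.7 and 36.6, and copies of such a pseudogene can share reads.

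**Figure D3:**
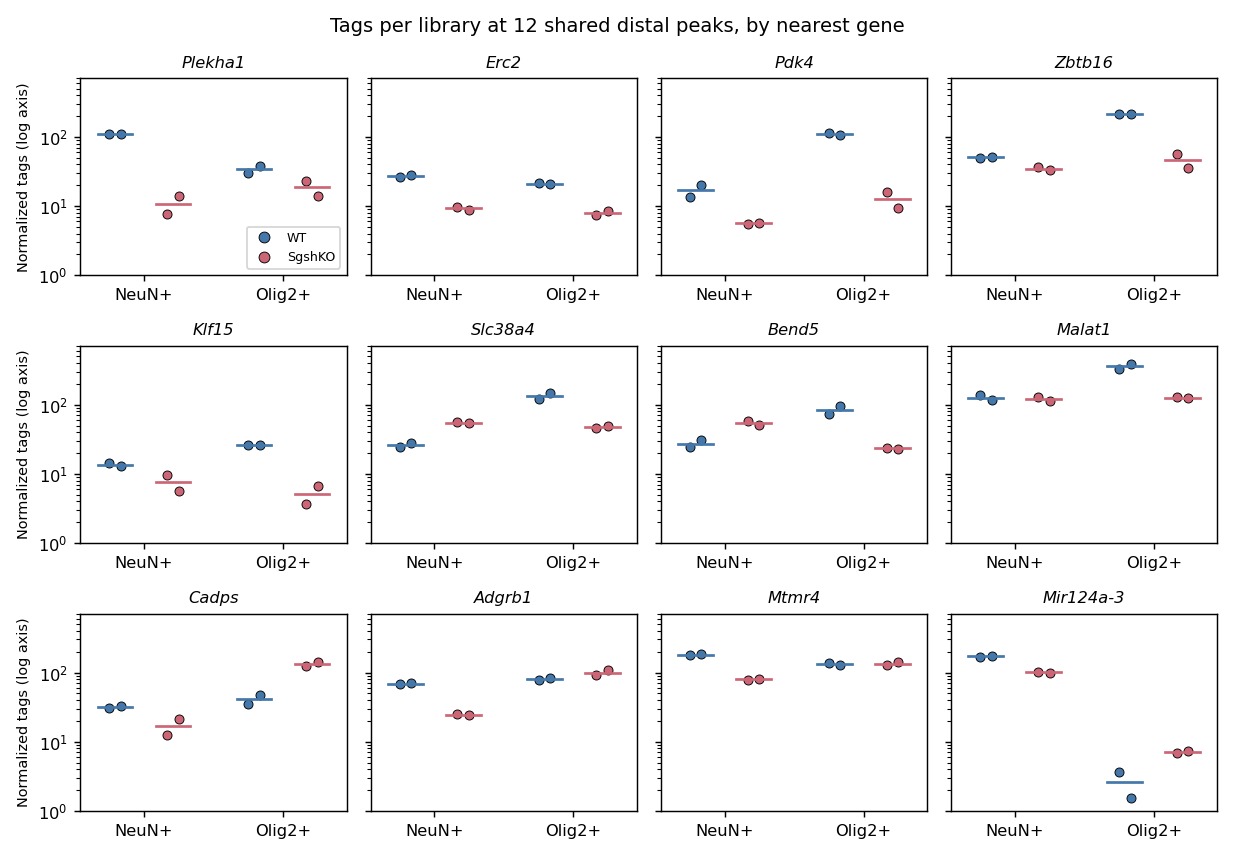
Normalized tags in each library (points) and group means (lines) on a log axis at 12 regions named by nearest gene, WT in blue and SgshKO in red, n = 2 libraries per group. Pdk4, Zbtb16 and Klf15 drop more in Olig2+ than in NeuN+ nuclei, Slc38a4 and Bend5 move in opposite directions in the sorts, and Adgrb1 and Mtmr4 fall in NeuN+ nuclei.

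Most called regions were called in 1 sort and not in the other, as were most called pairs over all. Of all pairs 9404 were called in NeuN+ alone, 3383 in Olig2+ alone and 2898 in both. Of the 1400 regions called in NeuN+ and the 1356 called in Olig2+ nuclei, 308 were called in both. Of these, 23 rose in both, 234 fell in both, 24 rose in NeuN+ and fell in Olig2+, and 27 did the reverse. The 257 regions that moved the same way are 3.85% of the regions, beside 4.41% of all pairs, with 0.176% of all pairs up in both and 4.23% down in both. They make up 18.4% of the NeuN+ calls and 19.0% of the Olig2+ calls, beside 10.6% and 20.8% over all pairs. Across regions the changes had a Pearson r of 0.14 and a Spearman rho of 0.09 (regions are not replicates). In-peak scaling left 54 up and 82 down in both, median-of-ratios scaling 54 and 89, quantile normalization 22 and 53, edgeR 59 and 99, and DESeq2 1 and 0.

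**Figure D4:**
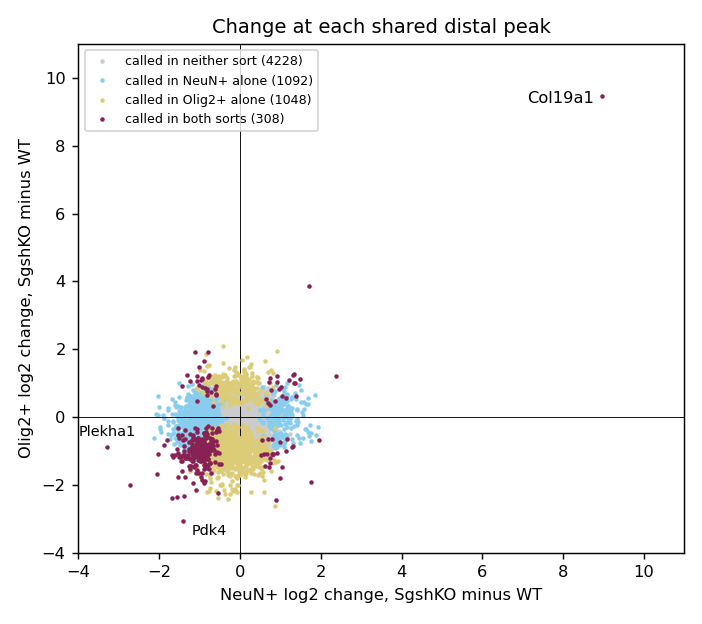
Log2 change (SgshKO minus WT) at each of the 6676 regions in NeuN+ (horizontal) and Olig2+ nuclei (vertical), coloured by where it was called. The 308 regions called in both sorts lie mostly at lower left, and Col19a1, with 0 reads in WT, stands alone.

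Among regions at or above the median level in both sorts, those that fell together were led by one 25.9 kb from Erc2, a scaffold of the presynaptic active zone (chr14:27596382-27596623). It had 26.1 and 28.2 tags in WT and 9.77 and 8.89 in SgshKO NeuN+ nuclei and 21.3 and 20.97 against 7.38 and 8.64 in Olig2+ nuclei (log2 changes -1.45 ± 0.25 and -1.30 ± 0.29, adjusted p = 4.9e-04 and 0.0018, limma). An intron of Dcaf5, a substrate receptor of a ubiquitin ligase (nearest TSS Mir1843a), fell from 578 and 571 to 237 and 257 in Olig2+ nuclei and from 26.1 and 23.7 to 9.07 and 9.52 in NeuN+ nuclei. Its log2 changes of -1.22 ± 0.07 and -1.33 ± 0.26 stand side by side beside a WT level difference (NeuN+ minus Olig2+) of -4.48. An intron of the histone demethylase gene Kdm4a (nearest TSS St3gal3) fell by 1.22 in both sorts, and intergenic regions near Gm6194 and Gm30052 fell by 1.15 and 1.10 in NeuN+ and by 1.46 and 1.04 in Olig2+ nuclei. Beside Col19a1, 4 regions met the rule for rising in both: near Ptcd2 (a mitochondrial RNA-binding protein), in Slc1a1 (a neuronal glutamate transporter), near Mob4 and in an intron of Snd1 with the nearest TSS of Lrrc4. Their NeuN+ changes were 1.01, 0.96, 0.76 and 0.72 on the log2 scale. The NeuN+ calls at Slc1a1, Mob4, Lrrc4, Ptcd2, St3gal3 and Gm6194 did not hold without WT replicate 2 (adjusted p = 0.235, 0.188, 0.0819, 0.122, 0.0934 and 0.211), and those at Mob4, Lrrc4, St3gal3 and Gm30052 without WT replicate 1 (adjusted p = 0.0807, 0.0904, 0.124 and 0.0576). Quantile normalization ended the NeuN+ calls at Slc1a1, St3gal3 and Gm6194 (adjusted p = 0.0518, 0.0883 and 0.0624). With DESeq2 0 of all the regions were called lower in both sorts, so none of the joint falls named here kept both calls, and 1 region was called higher in both. In Olig2+ nuclei the call at Gm30052 was lost without each of 3 libraries, WT replicate 1, WT replicate 2 and SgshKO replicate 1 (adjusted p = 0.052, 0.15 and 0.208), at Slc1a1 without WT replicate 2 or SgshKO replicate 2 (0.146 and 0.134), and at Lrrc4 without WT replicate 1 (0.0778).

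Whether a region's change differed between the sorts was tested in 1 model over all pairs. The NeuN+ change was above the Olig2+ change at 470 regions and below it at 656, 7.04% and 9.83% of them, against 3.29% and 31.7% of all pairs. The median difference was -0.04 at the regions and -0.41 over all pairs. This balance moved with the scaling, to 776 above and 273 below (in-peak), 993 and 160 (median of ratios), 749 and 189 (quantile) and 1083 and 176 (edgeR). The median at the regions then lay at 0.21, 0.34 and 0.24 and that of all pairs at -0.15, -0.01 and -0.02 for the first 3. The regions thus stood above all pairs in each of the 4 scalings. So did the distal pairs that meet a microglia peak, with medians of 0.06, 0.20 and 0.11 for the first 3 and -0.20 at the deposited scaling.

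Of the 3 regions with the smallest p-values above 0, those nearest to Slc38a4 and Bend5 rose in NeuN+ and fell in Olig2+ nuclei, and the third, near Malat1, fell in Olig2+ nuclei and was not called in NeuN+ nuclei. The region 86.8 kb from Slc38a4, an amino acid transporter (chr15:96933411-96933726), had 24.4 and 28.2 tags in WT and 55.8 and 54.0 in SgshKO NeuN+ nuclei, but 123 and 146 against 46.1 and 49.9 in Olig2+ nuclei. The changes of 1.04 ± 0.18 and -1.46 ± 0.14 differed by 2.50 ± 0.23 (adjusted p = 4.9e-10, limma). An intron of Agbl4, an enzyme that trims glutamate chains from tubulin (nearest TSS Bend5), went from 24.4 and 30.5 to 58.6 and 51.4 in NeuN+ and from 73.7 and 96.7 to 24.0 and 23.3 in Olig2+ nuclei. Upstream of Malat1, a nuclear noncoding RNA, a region 9.6 kb from the TSS had 330 and 384 in WT and 127 and 126 in SgshKO Olig2+ nuclei. The NeuN+ libraries had 137 and 115 in WT and 128 and 112 in SgshKO at Malat1, which overlap, and the difference between the sorts was 1.42 ± 0.15 (adjusted p = 1.0e-08). The sign of that small NeuN+ change, -0.07, turned with the scaling.

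Below 0 the leading regions were introns of Cadps, Adgrb1 and Mtmr4, a phosphoinositide phosphatase of endosomes. At Cadps the NeuN+ libraries had 30.6 and 32.8 in WT and 12.6 and 21.6 in SgshKO while Olig2+ tags rose, as given above (difference -2.57 ± 0.29, adjusted p = 2.7e-08, limma). The NeuN+ fall at Cadps was not called after in-peak scaling or quantile normalization (adjusted p = 0.0697 and 0.091) or without either WT library (0.0933 and 0.116). In the first intron of Adgrb1 the NeuN+ libraries had 67.4 and 71.2 in WT and 25.1 and 24.1 in SgshKO, and the Olig2+ libraries 76.8 and 83.9 against 91.6 and 107 (0.30 ± 0.13, adjusted p = 0.111). With median-of-ratios scaling and with edgeR that Olig2+ rise was called (adjusted p = 0.0449 and 0.0315). At Mtmr4 the NeuN+ libraries had 179 and 182 in WT and 78.2 and 81.3 in SgshKO, and the 4 Olig2+ libraries overlapped at 129 to 140.2.

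Genes with many regions followed the sorts in different ways. Over all the regions 17.2% fell and 3.76% rose in NeuN+ nuclei, and 16.2% fell and 4.07% rose in Olig2+ nuclei. Whether the counts at a gene differ from these shares was not tested. At Adgrb1, 6 of 16 fell in NeuN+ nuclei (2 after in-peak scaling, median-of-ratios scaling or quantile normalization) and 1 fell in Olig2+ nuclei, where 2 rose and 0 fell after median-of-ratios scaling. At Nfasc, 6 of 16 fell in NeuN+ and 6 in Olig2+ nuclei, with medians of -0.40 and -0.56, and between 2 and 3 and between 5 and 6 did so under those scalings. At Ank3, 1 of 15 rose and 3 fell in NeuN+ nuclei while 6 fell in Olig2+ nuclei (3 to 6 under those scalings). At Gse1, 3 of 16 fell in NeuN+ nuclei (1, 1 and 0 under those scalings, with 1 rise under the first 2) and 0 were called at the deposited scaling in Olig2+ nuclei, where median-of-ratios scaling and edgeR each called 1 rise. At Nfix, 4 of 15 fell in NeuN+ nuclei (0, 1 and 0 under those scalings) and 2 in Olig2+ nuclei.

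Genes known to respond to glucocorticoids, the stress hormones that act through the receptor Nr3c1, had 25 regions near 9 of 20 listed genes. In Olig2+ nuclei 11 fell and 0 rose, where 16.2% of all the regions fell and 4.07% rose. The median log2 change was -0.76 beside -0.22 over all the regions. Under the other scalings 10 to 11 fell, and 1 region at most rose. The 11 lay near Zbtb16 (6 of 9 regions), Klf9 (2 of 7), Klf15, Pdk4 and Plin4 (1 of 1 each), while none of 3 near Ddit4 and none near Dusp1, Mt2 or Sgk1 was called. In NeuN+ nuclei 5 fell and 0 rose, where 17.2% of all the regions fell and 3.76% rose, so the falls stood near that share. The median was -0.38, and in-peak scaling gave 2 falls and 2 rises. The list was drawn up with falls at genes of this kind in these libraries known, so its count is no independent evidence of direction.

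**Figure D5:**
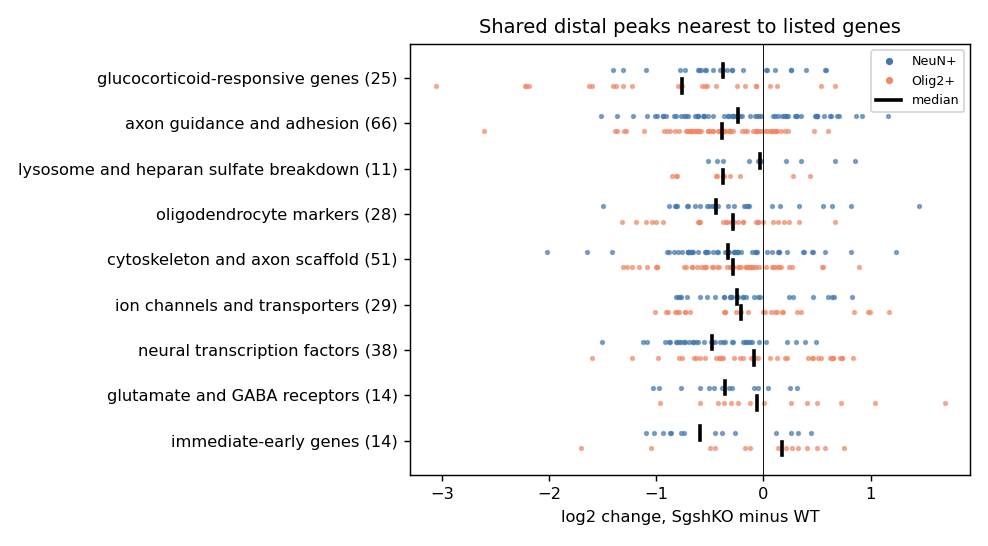
Log2 change (SgshKO minus WT) of each region whose nearest gene is in a list, for the 9 lists with at least 10 regions (number in brackets), NeuN+ in blue, Olig2+ in orange and medians as black bars. The glucocorticoid-responsive list has the lowest Olig2+ median, at -0.76, and the immediate-early list has medians of opposite sign.

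Markers of the sorted cells had more regions on the oligodendrocyte list than on the neuronal one. Of all the regions 31.9% were higher in WT Olig2+ and 19.5% in WT NeuN+ nuclei. With genotype 16.2% fell and 4.07% rose in Olig2+ nuclei, and 17.2% fell and 3.76% rose in NeuN+ nuclei. Of 28 regions near 8 oligodendrocyte marker genes, 22 were higher in WT Olig2+ and 0 in WT NeuN+ nuclei. Mbp alone held 14 of the 28 regions and 10 of the 22. In SgshKO, 7 of the 28 fell and 0 rose in Olig2+ nuclei, 3 near Mbp, 3 near Mobp and 1 near Nkx6-2. These falls were led by a region 35.0 kb from Mobp, a myelin protein, with 83.0 and 90.5 tags in WT and 37.5 and 45.9 in SgshKO (log2 change -1.05 ± 0.16, adjusted p = 2.4e-05, limma). In NeuN+ nuclei 3 fell and 1 rose (3 rose and 1 fell after in-peak scaling), and the smallest p was at an intron of Mbp with 12.5 and 13.6 in WT and 3.49 and 4.44 in SgshKO, not called without WT replicate 2 (adjusted p = 0.0591). Neuronal marker genes had 4 regions, of which 1 was higher in WT NeuN+ and 2 in WT Olig2+ nuclei. In SgshKO 1 of them, in an intron of Rbfox3 itself, fell in Olig2+ nuclei from 9.34 and 13.3 to 4.92 and 3.99. Rbfox3 encodes the NeuN antigen used in the gate, and that call was lost after quantile normalization (adjusted p = 0.0619) and without either WT library (0.0796 and 0.288). Oligodendrocyte precursor markers had 8 regions with 0 calls by limma in either sort. The 2 smallest p-values were at introns of Cspg4, the NG2 proteoglycan, with adjusted p = 0.0776 in NeuN+ and 0.0523 in Olig2+ nuclei, and the latter, a rise from 3.63 and 5.11 to 10.5 and 8.64, was called after each other scaling and by edgeR. The NeuN+ one was called without WT replicate 2 (adjusted p = 0.021).

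Markers of cells that neither sort should hold had few regions, but so did the neuronal markers, with 4 near 2 of 20 genes. Over all the regions 17.2% fell and 3.76% rose in NeuN+ nuclei, and 16.2% fell and 4.07% rose in Olig2+ nuclei. Astrocyte markers had 3: the region near Slc1a2, the glial glutamate transporter, went from 2.59 and 3.58 to 9.22 and 14.6 in Olig2+ nuclei (log2 change 1.64 ± 0.37, adjusted p = 0.0023, limma), and the one near the growth factor receptor gene Fgfr3 from 16.4 and 11.9 to 4.89 and 6.35 in NeuN+ nuclei. Without WT replicate 1 the Fgfr3 fall was not called (adjusted p = 0.155). Microglia markers had 1 region. Endothelial markers had 4 regions, with a fall near Egfl7 and a rise near Cdh5 in NeuN+ nuclei (log2 changes -1.14 and 1.17), and the Cdh5 rise was not called after quantile normalization or without WT replicate 2 (adjusted p = 0.0698 and 0.285). Without WT replicate 1 neither was the Egfl7 fall (adjusted p = 0.0683).

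Among genes of axon guidance and of the cytoskeleton, falls outnumbered rises at the deposited scaling, as they did over all the regions (17.2% down and 3.76% up in NeuN+, 16.2% and 4.07% in Olig2+ nuclei), so nothing particular to these genes is read from the counts. Axon guidance and adhesion genes had 66 regions near 26 of 51 listed genes, with 4 up and 13 down in NeuN+ and 1 up and 14 down in Olig2+ nuclei. In-peak scaling turned the NeuN+ split to 12 up and 8 down and left the Olig2+ split at 1 and 14. The leading regions were a first-intron region of the adhesion molecule Ncam1, with 41.9 and 42.9 in WT and 18.9 and 13.3 in SgshKO NeuN+ nuclei (log2 change -1.36 ± 0.22, adjusted p = 2.7e-04, limma), and an intronic one of the synaptic adhesion gene Nlgn1, with 110.0 and 121 against 65.2 and 67.1 in Olig2+ nuclei. Cytoskeleton and axon scaffold genes had 51 regions, with 1 up and 7 down in NeuN+ (4 and 3 after in-peak scaling) and 1 up and 9 down in Olig2+ nuclei. An intron of Tubb3, neuronal beta-tubulin, had 63.8 and 60.3 in WT and 27.1 and 27.3 in SgshKO Olig2+ nuclei, against 5.08 to 11.2 in NeuN+ nuclei, whose level at this neuronal gene was the lower. At Ank3 the NeuN+ region with the smallest p, from 11.9 and 10.17 to 1.40 and 5.08, lost its call without either WT library (adjusted p = 0.137 and 0.0785).

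For the counts of the next lists, 17.2% of all the regions fell and 3.76% rose in NeuN+ nuclei. In Olig2+ nuclei 16.2% fell and 4.07% rose. Neural transcription factors had 38 regions near 13 of 42 genes, with 0 up and 11 down in NeuN+ nuclei and 2 up and 4 down in Olig2+ nuclei (4 and 4 after median-of-ratios scaling). The NeuN+ falls shrank to 1, 3 and 1 under in-peak, median-of-ratios and quantile scaling, with 1 rise in each. They were led by a region 209 kb from the homeobox gene Meis2, with 34.6 and 33.3 in WT and 12.6 and 10.2 in SgshKO (log2 change -1.51 ± 0.24, adjusted p = 2.0e-04, limma). In Olig2+ nuclei the smallest p was at an intron of Nfix, with 72.1 and 76.2 in WT and 41.2 and 33.2 in SgshKO. Immediate-early genes, which neuronal activity induces, had 14 regions with 0 up and 4 down in NeuN+ and 0 up and 1 down in Olig2+ nuclei, and the NeuN+ falls were 1, 1 and 0 under those scalings. The region 12.0 kb from Npas4, an activity-induced transcription factor, had 185 and 147 in WT and 93.5 and 86.4 in SgshKO NeuN+ nuclei, not called after quantile normalization (adjusted p = 0.0938). An intron of Homer1, a postsynaptic scaffold, fell in Olig2+ nuclei from 8.30 and 8.69 to 1.84 and 1.99, which is 3 reads in each SgshKO library, and lost its call without either WT library (adjusted p = 0.15 and 0.168).

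Ion channels and transporters had 29 regions, with 0 up and 3 down in NeuN+ (2 and 2 after in-peak scaling) and 3 up and 6 down in Olig2+ nuclei (4 and 4 after median-of-ratios or quantile scaling). Beside this list and the next, all the regions had 3.76% up and 17.2% down in NeuN+ and 4.07% and 16.2% in Olig2+ nuclei. An intron of Kcnma1, the BK potassium channel, had 85.5 and 87.0 in WT and 44.7 and 54.0 in SgshKO NeuN+ nuclei, while its few Olig2+ tags rose from 9.34 and 4.09 to 14.1 and 16.6 (difference -1.97 ± 0.36, adjusted p = 5.5e-05, limma). The NeuN+ fall at Kcnma1 was not called after quantile normalization (adjusted p = 0.117), nor the Olig2+ rise without WT replicate 2 (0.257). An intron of the sodium-calcium exchanger gene Slc8a1 fell in Olig2+ nuclei from 99.1 and 77.7 to 46.1 and 46.5. Glutamate and GABA receptor genes had 14 regions, with 0 up and 1 down in NeuN+ and 3 up and 2 down in Olig2+ nuclei. The smallest p-values were at an intron of the GABA receptor subunit Gabrb1, from 31.7 and 28.8 to 16.8 and 12.1 in NeuN+ nuclei (not called without WT replicate 1, adjusted p = 0.0742), and at an intron of Arhgef12 with the nearest TSS of Grik4, from 23.9 and 18.9 to 48.6 and 41.2 in Olig2+ nuclei.

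Lysosomal and heparan sulfate genes, the pathway in which Sgsh acts, had 11 regions near 10 of 40 listed genes and few calls. Limma called 1 up and 0 down in NeuN+ nuclei and 0 in either direction in Olig2+ nuclei, where edgeR and the other scalings also called 0. Over all the regions 3.76% rose and 17.2% fell in NeuN+ nuclei, and 4.07% rose and 16.2% fell in Olig2+ nuclei. Whether the counts among 11 regions differ from these shares was not tested. The NeuN+ rise was 97.6 kb from Mitf, a transcription factor related to the lysosomal regulator Tfeb, with 13.6 and 11.9 in WT and 30.7 and 18.4 in SgshKO (log2 change 0.86 ± 0.27, adjusted p = 0.0248). The Mitf call was lost without either WT library (adjusted p = 0.0964 and 0.15). The medians over the 11 regions were -0.03 in NeuN+ nuclei, with 0.24, 0.16 and 0.07 under in-peak, median-of-ratios and quantile scaling, and -0.38 in Olig2+ nuclei. Over all the regions they were -0.30 and -0.22 at the deposited scaling.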

How the data were processed

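ATAC-seq was measured in 12 libraries, of which the 8 of nuclei were compared. The deposited values are signal per peak, tags scaled to 10000000 per library, per the file headers. Reads were aligned with Bowtie2 and peaks handled with HOMER on mm10, per the submitters' processing notes, with versions not given in the sources used here. Each value times the library total in the header over 10000000 gave a whole read count within 0.01, and 0 sample columns were unmatched. The microglia table served for overlap alone.

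Log2(tags + 1) was fitted with limma 3.58.1 (R 4.3.3) in each table over all its peaks, and over all one-to-one pairs for the difference between sorts and for WT levels, with Benjamini-Hochberg adjustment and calls at adjusted p under 0.05. A log2 change on this scale understates changes at low tags. Alternatives included edgeR 4.0.16 and DESeq2 1.42.0 on the recovered reads. The scripts were tested on simulated data.

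Regions, gene lists and tests were chosen with earlier results of these data known, and the glucocorticoid and immediate-early lists were added after the tables had been read. Named regions are the 5 largest changes in each direction per sort and shared by both, among called regions with separate genotypes and a mean at or above the regions' median, 1 per gene, the 3 smallest p-values in each direction of the difference, the 3 highest levels, the 3 largest WT differences each way, the 5 genes with most regions (6 because of a tie, and Mbp was named after its values were seen), and the smallest p per list and sort. Floors cover counting error only. Motifs were searched in RefSeq windows of 250 bases, since no genome of the build was used here. Some results that these rules name are not reported here.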

Additional observations from a re-analysis of the deposited data

Results flagged for a closer look

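The genotype change differed between the sorts at 1126 regions (16.9%) by the test of the difference itself, below the 35.0% of all pairs. Of the regions named for the size of their change or for the p of the difference, 21 are among them. Regions named for their level or from a list are not given here, except Kcnma1 (-1.97). All values here are the NeuN+ change minus the Olig2+ change on the log2 scale. Above 0 stood Slc38a4 (2.50), Bend5 (2.78), Malat1 (1.42), Zbtb16 (1.69), Galnt11 (2.48), Gm38414 (1.97), Pdk4 (1.65), Klf15 (1.41), Nemf (1.12), Gramd3 (1.20) and Ldlrad4 (1.05). Slc38a4 and Bend5 rose in NeuN+ and fell in Olig2+ nuclei, and at Zbtb16, Pdk4 and Klf15 the Olig2+ fall was the larger.

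Below 0 stood Cadps (-2.57), Plekha1 (-2.41), Crocc2 (-2.32), Cfap46 (-2.13), Adgrb1 (-1.76), Slc3a1 (-1.71), Prg4 (-1.29), Rnf144b (-1.25), Mtmr4 (-1.19) and 4930486F22Rik (-1.12). The difference was not called at 4930486F22Rik after median-of-ratios scaling, quantile normalization or edgeR (adjusted p = 0.0871, 0.0653 and 0.129), at Prg4 after in-peak, median-of-ratios or quantile scaling or edgeR (0.0569, 0.107, 0.0614 and 0.149), at Rnf144b after quantile normalization or edgeR (0.0698 and 0.0705), or at Ldlrad4 with edgeR (0.0724). At Nemf, Gramd3, Klf15 and Ldlrad4 it was lost without some single libraries, with adjusted p up to 0.165, 0.174, 0.0872 and 0.197.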

How the results depend on the processing

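Against 1400 of 6676 regions called in NeuN+ nuclei, quantile normalization gave 589, DESeq2 68 and a threshold of 0.01 gave 469. An overlap of 80% left only 3502 regions to count, of which 784 were called. Leaving out 1 library gave 0 to 387, with 294 without WT replicate 1, 387 without WT replicate 2 and 0 without either SgshKO library. There the prior degrees of freedom fell to 1.81, and 6.33% of NeuN+ peaks had equal reads in the WT pair. With edgeR those last omissions gave 626 and 548, and with WT replicate 2 thinned by 10% limma gave 1331 and 1230. The thinned and edgeR omissions were chosen after seeing the data. Against 1356 of 6676 in Olig2+ nuclei, DESeq2 gave 215, 80% overlap 774 of 3502 and the threshold of 0.01 580. Omissions gave 440 (WT replicate 2) to 1324, with 460 without WT replicate 1, and edgeR without each SgshKO library 716 and 748.

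Against 257 called the same way in both sorts, in-peak scaling gave 136, median-of-ratios scaling 143, quantile normalization 75, edgeR 158, DESeq2 1, the threshold of 0.01 40 and omissions 0 to 254. Against 1126 with a difference between sorts, leaving out the lowest 25% of peaks gave 656, DESeq2 198, 80% overlap 559, the threshold of 0.01 501 and omissions 679 (Olig2+ WT replicate 2) to 1127, with 722 without NeuN+ WT replicate 1. Against 3428 (51.3%) with different WT levels, leaving out the lowest 25% gave 2090 (52.7% of the regions left) and 80% overlap 1732 (49.5%). Omissions gave 2801 to 3595.

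The NeuN+ sum, -17.3% at the deposited scaling, was 1.77% after in-peak scaling, -3.86% with median-of-ratios factors, -5.37% after quantile normalization, -19.5% at 80% overlap and -18.2% to -16.4% with a library left out. The Olig2+ sum, -12.2%, was -11.0% after in-peak scaling, -7.98% with median-of-ratios factors, -9.44% after quantile normalization and -15.1% at 80% overlap. With a library left out it was -13.4% to -11.1%. The excess of Olig2+ over NeuN+ sums, 55.5%, was 17.2% after in-peak scaling and 50.3% to 61.0% with a library left out.

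Named regions gave 153 results and 2125 alternatives, of which 1784 kept direction and call, 303 lost and 20 gained a call and 18 changed sign. The sign changed for Malat1 in NeuN+ nuclei after in-peak (0.23), median-of-ratios (0.15) and quantile (0.49) scaling, edgeR (0.14) and DESeq2 (0.15), and with a library left out (-0.19 to 0.056). It changed for 9430041J12Rik in NeuN+ nuclei after the same settings (0.17, 0.092, 0.0094, 0.11 and 0.11) and with a library left out (-0.28 to 0.056). It changed for Schip1 in NeuN+ nuclei and for the difference at Fbxw7 after quantile normalization (0.21 and 0.054), and with a library left out for Tnfsf11 in NeuN+ nuclei (-0.31 to 0.46) and for Mtmr4 in Olig2+ nuclei (-0.043 to 0.075). The cause was not tested.

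The replicate numbers did not pair the libraries (r of same-numbered deviations -0.0082 in NeuN+ and -0.011 in Olig2+ nuclei). With them as a replicate block 1610, 1472, 319, 1184 and 2930 regions were called, in the order of the counts above. A median of 16 to 30 reads per region and library limits calls at low regions.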

Other observations

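The 87 regions that reach into a RefSeq start window changed in both directions. In NeuN+ nuclei 5 were higher and 26 lower in SgshKO, where 3.76% and 17.2% of all 6676 regions were. The median log2 change was -0.41, beside -0.30 over all the regions. In Olig2+ nuclei 3 were higher and 14 lower, where 4.07% and 16.2% of all the regions were, with a median of -0.14, beside -0.22. These counts are at the deposited scaling, and the direction in NeuN+ nuclei rests on the scaling, as given above.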
